A study of Mus musculus with 6 samples.

Results

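The genes described here are 40 genes of DNA replication and mitosis, measured by RNA-seq in whole eyes of the inbred mouse strain C57BL/6J. They were taken from a list of gene symbols, and all 40 were present among the 22692 symbols of each table. The list splits into 17 S phase genes, which license, start and feed DNA replication, and 23 mitotic genes, which act from G2 to cell division. Cyclin A2 acts in both phases and was placed with the mitotic genes. Eyes were collected 9.0 h or 1.5 h after light onset, with 3 libraries at each time. Every library pooled the RNA of 5 females that were 4 weeks old. The labels give this strain for both times and name no mutant allele, treatment or agent. Whether separate animals went into the 3 pools of a time is not stated, so the p-values cover only the variation among these pools, part of which may be technical.

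Cells copy their DNA in S phase and divide it in mitosis, and most genes for these steps are transcribed only in the phase that needs them. Replication genes are switched on by E2F transcription factors late in G1, and mitotic genes by the MuvB complexes with B-MYB and FOXM1 in G2. Most cells of a young adult eye, such as photoreceptors, other neurons and lens fibres, no longer divide. Cycling cells are known mainly from the basal layer of the corneal, limbal and conjunctival epithelium, with slower division in the lens epithelium, vessels and resident blood cells. In the corneal epithelium of rodents, DNA synthesis and mitosis are known to follow a daily rhythm with peaks at different hours. A later and an earlier hour of the light phase, compared in whole eyes, cannot show such a rhythm, which was not tested.

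Values are RPKM, reads scaled by gene length and by the reads of the library. The steps between low values put 24040000 to 31770000 reads behind the 9.0 h libraries, 28950000 behind 1.5 h replicate 1, and 12730000 and 12990000 behind 1.5 h replicates 2 and 3. From these totals and the longest annotated transcript, 36 of the 40 members had at least 20 reads in every library, and the fewest were 10.2 for Cdc6. Rod, lens, corneal and pigment epithelium markers were all present (for example, 12974 to 14582 RPKM summed over 10 rod genes at 9.0 h and 13576 to 14892 at 1.5 h). One library went against its label: 1.5 h replicate 3, labelled female, had a summed 1.59 RPKM over 4 Y-linked genes, which were listed at 0 in the 5 other libraries. The haemoglobin gene Beta-s had 82.7 to 117.7 RPKM at 9.0 h, 41.9 and 53.0 RPKM in 1.5 h replicates 1 and 2, and 366.9 RPKM in that same library. Class results are therefore also given without it. Reads of 9 members cannot be separated with certainty from a near-identical processed pseudogene (Mcm6, Mcm7, Pcna, Rrm2, Tyms, Mki67, Ccnb1, Mad2l1 and Cdc20). Exons of 11 members overlap another gene (Ccne2, Cdk2, Mcm7, Gins2, Top2a, Ccna2, Plk1, Cdc20, Ube2c, Kif20a and Nusap1), and the strand setting of the counting is not known. In bulk tissue, fewer dividing cells and less RNA in each of them cannot be told apart.

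In this list, the mitotic genes mostly had lower values at 9.0 h than at 1.5 h, and the S phase genes mostly slightly higher ones. Of the 23 mitotic genes, 21 had a lower mean log2 value at 9.0 h than at 1.5 h, and the median of their log2 fold changes (9.0 h minus 1.5 h, on the log2(RPKM + 0.1) scale) was -0.34. Of the 17 S phase genes, 12 had a higher mean log2 value at 9.0 h, and their median log2 fold change was 0.094. Over all 18862 genes above 0 in any library the median was -0.0077, and 51.5% had a fold change below 0. These medians describe the lists and were not tested. Replication genes outside the list mostly went the other way from the S phase members: of 42, 28 had a fold change below 0, with a median of -0.096.

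No single member passed the test. Of 13490 genes that reached 1 RPKM in at least 3 libraries, limma called 30 at a Benjamini-Hochberg adjusted p under 0.05 (0.222%; 0.148% higher and 0.0741% lower at 9.0 h). Among the members, 16 mitotic and 15 S phase genes passed the filter on low values, and 0 were called. At an unadjusted limma p under 0.05, 6 mitotic genes were lower at 9.0 h, where 4.58% of all tested genes were, and 2 S phase genes were higher, where 6.47% were (11.1% in either direction). The smallest adjusted p of a member was 0.189, for Pcna. Values of the 3 libraries at 9.0 h did not overlap those at 1.5 h and were lower for 6 of the 23 mitotic genes and 1 of the 17 S phase genes (8.13% of all genes above 0, 8.41% of those tested). They did not overlap and were higher for 0 mitotic and 6 S phase genes (8.29% of all genes above 0, 9.78% of those tested). The calls over all genes depended on the library left out. The 30 became 3, 8 and 2 without 9.0 h replicates 1 to 3. They became 46 and 10 without 1.5 h replicates 2 and 3, and no member was among the calls of these fits. Without 1.5 h replicate 1, 9.11% of all tested genes were called, among them Pcna, Cdk1, Ube2c, Spc25 and Nusap1. Ube2c then had 7.92 and 3.54 RPKM at 1.5 h, so its call does not reflect a narrow spread.

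The difference in the mitotic genes lay in 2 of the 3 libraries at 1.5 h. Relative to each gene's mean over the 6 libraries, the median mitotic gene stood at -0.18, -0.15 and -0.15 on the log2 scale in 9.0 h replicates 1 to 3, and at 0.21, 0.48 and -0.14 in 1.5 h replicates 1 to 3. Replicates 1 and 2 at 1.5 h exceeded every 9.0 h library in 19 and 22 of the 23 genes, but replicate 3 did so in 7 and was below every 9.0 h library in 8. The share of all genes that did so was not counted, so these counts have no background to be read against. Another measure has one, the library with the highest of the 6 values. That was 1.5 h replicate 1 for 21.7% of the mitotic genes, near the 22.5% of all tested genes. It was 1.5 h replicate 2 for 73.9% of the mitotic genes and 33.7% of all tested genes. The size of the mitotic median depended on the library left out. It was -0.32 without 1.5 h replicate 1, -0.18 without replicate 2 and -0.52 without replicate 3, where all 23 genes had a fold change below 0. Of all 18862 genes above 0, 10174 were below 0 in that setting. Leaving out replicate 3 keeps only the 1.5 h libraries with high mitotic values, so this count of 23 adds no separate support. The S phase genes were closer together, at 0.027, 0.063 and 0.060 in the 9.0 h libraries and 0.017, -0.035 and -0.086 in the 1.5 h libraries. Their median log2 fold change was 0.14 without 1.5 h replicate 1 and also without replicate 2, and 0.021 without replicate 3, with 6 of 17 genes then below 0. Subtracting the mean S phase deviation from the mean mitotic deviation in each library gave -0.25, -0.29 and -0.17 at 9.0 h, and 0.23, 0.51 and -0.033 at 1.5 h. The times did not overlap on this contrast, but narrowly, with 1.5 h replicate 3 closest to the 9.0 h libraries. The contrast uses means rather than medians, was not tested and has no background share. An exact permutation test of 3 against 3 could not go below p = 0.1 for it.

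**Figure D1:**
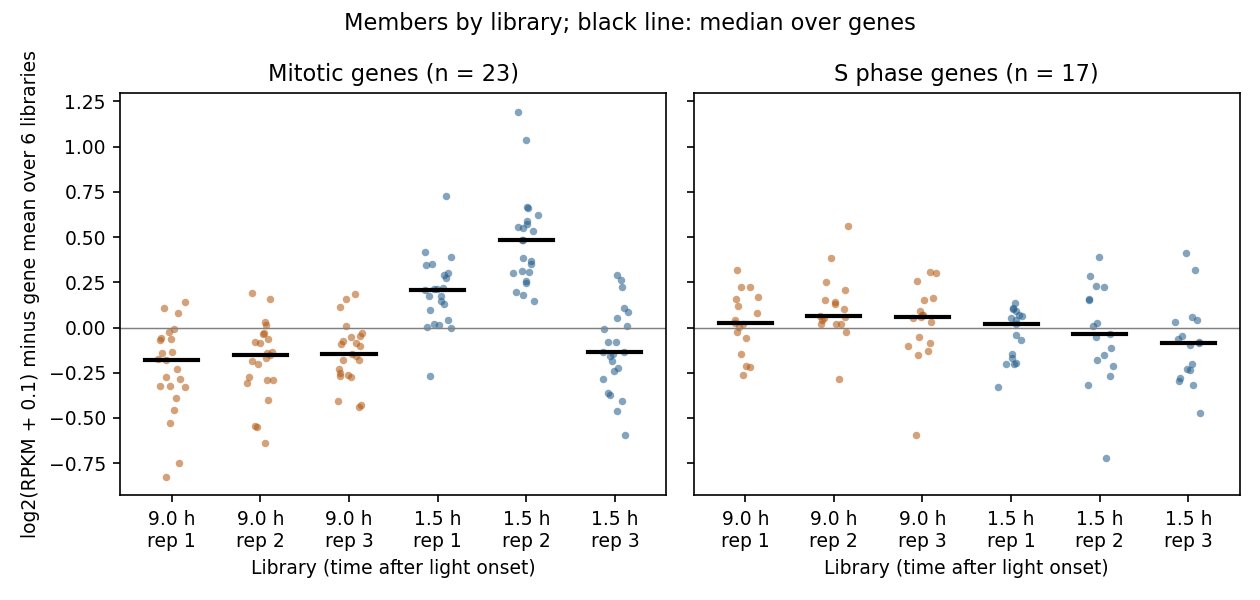
Each point is 1 gene's log2(RPKM + 0.1) minus its mean over the 6 libraries (y axis), for each library (x axis), with the mitotic genes on the left and the S phase genes on the right, and black lines at the medians. The medians of the mitotic genes are between -0.18 and -0.15 in the 9.0 h libraries and at 0.21, 0.48 and -0.14 in 1.5 h replicates 1 to 3, while those of the S phase genes stay between -0.086 and 0.063.

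Base composition moved with the libraries as well. In 9.0 h replicate 1, tested genes with transcripts under 42% GC stood at a median of -0.14 from their mean on the log2 scale, and those over 54% GC at 0.12. The same groups stood at -0.23 and 0.11 in 1.5 h replicate 1, and at 0.34 and -0.17 in 1.5 h replicate 2. The median transcript GC was 46.6% in the mitotic genes, 49.2% in the S phase genes and 50.1% in all tested genes. After trends with GC and length were removed from each library, the mitotic medians were -0.19, -0.18 and -0.071 at 9.0 h and 0.21, 0.30 and -0.12 at 1.5 h, the median fold change on the log2 scale was -0.32, and 18 of 23 genes were below 0. The S phase median log2 fold change was then 0.070, and 0.605% of all tested genes were called, 0 of them members. The same correction gave fold changes above 0 for 5 of the 23 mitotic genes, among them Mki67, Cenpe and Cenpf, which were below 0 without it.

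The promoters of the members are shown because E2F sites and CHR elements are known to time these 2 classes of genes. RefSeq promoters of build GRCm38.p6, which run from 250 bases before to 50 bases after the start of the gene, were available for 33 of the 40 members. Below are the 250 bases upstream of the start, on the strand of the gene. They are given for the 3 mitotic genes with the largest log2 fold changes of their class and for Pcna, with the largest of the S phase genes. Mcm6 is also given, but not by this rule: Cdt1, E2f1, Tyms and Ccne1 had larger fold changes in either direction. Capitals mark the motifs searched on both strands: the E2F site (TTTCCCGC, TTTCGCGC, TTTGCCGC or TTTGGCGC), the cell cycle genes homology region or CHR (TTTGAA or TTCGAA), the CCAAT box (CCAAT) and the clock E-box (CACGTG).
Cdk1: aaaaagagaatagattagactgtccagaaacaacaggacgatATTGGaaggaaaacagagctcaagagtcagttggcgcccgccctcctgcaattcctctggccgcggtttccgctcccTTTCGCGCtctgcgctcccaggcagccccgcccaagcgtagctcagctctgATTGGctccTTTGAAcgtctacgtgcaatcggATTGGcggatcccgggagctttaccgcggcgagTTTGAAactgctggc
Ccnb2: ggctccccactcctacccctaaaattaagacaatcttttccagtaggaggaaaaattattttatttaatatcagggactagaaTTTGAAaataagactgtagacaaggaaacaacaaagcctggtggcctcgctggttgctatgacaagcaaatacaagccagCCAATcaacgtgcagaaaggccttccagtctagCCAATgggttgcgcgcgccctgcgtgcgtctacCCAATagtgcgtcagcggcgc
Ube2c: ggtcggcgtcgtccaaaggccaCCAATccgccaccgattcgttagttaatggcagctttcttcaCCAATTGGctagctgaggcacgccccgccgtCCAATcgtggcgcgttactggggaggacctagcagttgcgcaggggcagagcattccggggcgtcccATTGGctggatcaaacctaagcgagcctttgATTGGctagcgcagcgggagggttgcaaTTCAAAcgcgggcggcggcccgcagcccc
Pcna: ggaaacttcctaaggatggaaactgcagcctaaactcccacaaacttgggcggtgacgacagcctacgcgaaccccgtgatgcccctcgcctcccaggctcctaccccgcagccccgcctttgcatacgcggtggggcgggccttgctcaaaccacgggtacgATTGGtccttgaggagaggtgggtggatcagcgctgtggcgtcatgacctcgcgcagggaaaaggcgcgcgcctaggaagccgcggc
Mcm6: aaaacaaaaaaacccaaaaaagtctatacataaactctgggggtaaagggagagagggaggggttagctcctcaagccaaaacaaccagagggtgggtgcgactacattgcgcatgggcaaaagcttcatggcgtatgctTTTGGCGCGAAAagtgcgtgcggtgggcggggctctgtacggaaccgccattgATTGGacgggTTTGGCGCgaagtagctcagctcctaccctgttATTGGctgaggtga
The regions are chr10:69352913-69353162 (minus strand), chr9:70421555-70421804 (minus), chr2:164769679-164769928 (plus), chr2:132253181-132253430 (minus) and chr1:128359706-128359955 (minus). Cdk1 holds an E2F site, 2 CHR and 3 CCAAT boxes in this stretch. The stretch of Ccnb2 has 1 CHR and 3 CCAAT boxes in a row before the start, and a further CHR just after it. In Ube2c, a CHR stands close to the start, and 2 of its 6 CCAAT boxes overlap on opposite strands. Mcm6 has 3 E2F sites, of which 2 overlap on opposite strands, and 2 CCAAT boxes. The stretch of Pcna held only a CCAAT box.

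Over the full windows, a CHR was found in 14 of 19 mitotic promoters (73.7%) and in 2 of 15 S phase promoters (13.3%), against 19.2% of all 32851 promoters. An E2F site was found in 1 of 19 mitotic promoters (5.26%), that of Cdk1, and in 7 of 15 S phase promoters (46.7%), against 2.26% of all. The S phase genes with one were Cdk2, Cdc6, Cdt1, Mcm3, Mcm5, Mcm6 and Mcm7. CCAAT boxes were in 84.2% of mitotic and 66.7% of S phase promoters, against 37.4% of all promoters. The E-box bound by CLOCK and BMAL1 was in 0 mitotic promoters and 1 S phase promoter, against 7.15% of all. A match is a description of these letters and was not tested as a binding site.

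**Figure D2:**
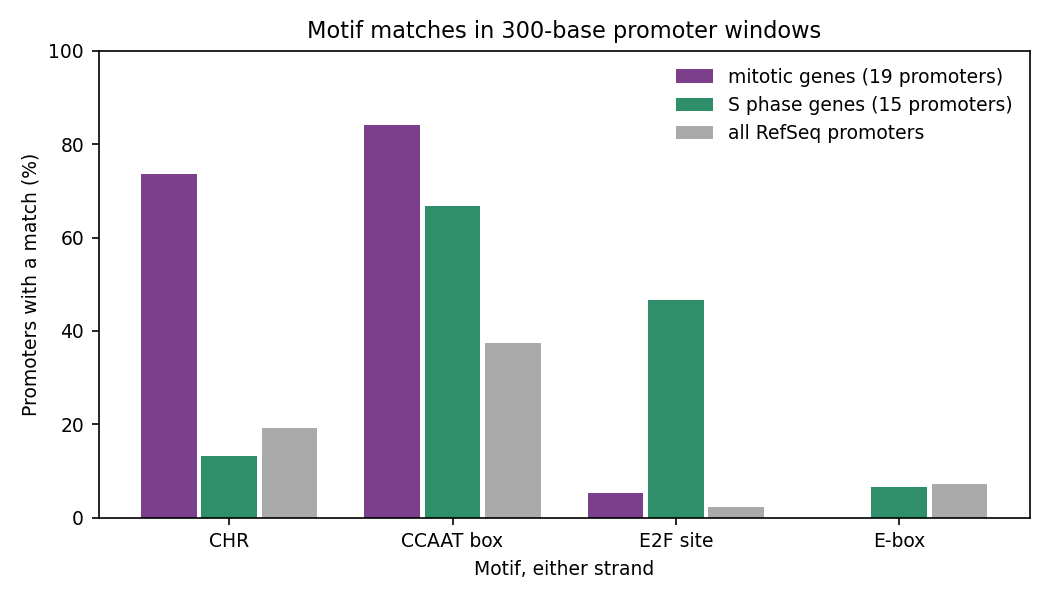
Bars give the percentage of promoter windows with at least 1 match on either strand (y axis) for each motif (x axis), in mitotic genes, S phase genes and all RefSeq promoters. The CHR bar is 73.7% for mitotic and 13.3% for S phase genes, and the E2F bar 5.26% and 46.7%.

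Cdk1, the kinase that drives entry into mitosis, had 1.49, 1.75 and 1.86 RPKM at 9.0 h and 2.96, 3.26 and 2.33 RPKM at 1.5 h. The 9.0 h libraries were all below the 1.5 h libraries, and the log2 fold change was -0.71 ± 0.19 SE (limma adjusted p = 0.19). Among its cyclin partners, Ccna2 had 3.80, 4.54 and 3.41 RPKM at 9.0 h and 6.14, 5.97 and 4.69 RPKM at 1.5 h. Its values did not overlap either, although the lowest at 1.5 h was close to the highest at 9.0 h (log2 fold change -0.50 ± 0.17 SE, limma adjusted p = 0.315). Exons of Ccna2 share 510 nt with Exosc9 on the opposite strand, and Exosc9 had 7.57 to 10.2 RPKM at 9.0 h and 8.22 to 13.1 RPKM at 1.5 h. Ccnb2, a B-type cyclin, had 2.32, 2.19 and 2.42 RPKM at 9.0 h and 4.92, 4.68 and 2.19 RPKM at 1.5 h. Here 1.5 h replicate 3 lay at the level of the 9.0 h libraries, and the log2 fold change was -0.66 with all libraries and -1.02 without it (limma adjusted p = 0.4 and 0.128). It was -0.46 without 1.5 h replicate 1 and -0.49 without replicate 2 (limma adjusted p = 0.121 and 0.555). Ccnb1, the other B-type cyclin, was low, at 0.788 ± 0.186 RPKM at 9.0 h and 0.991 ± 0.367 RPKM at 1.5 h (SD, n = 3 each), and did not pass the filter. It has 3 near-identical pseudogenes, so its value is uncertain.

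Ube2c, the ubiquitin-conjugating enzyme of the anaphase-promoting complex, had the largest log2 fold change of the 40 genes, -0.86 ± 0.29 SE (limma adjusted p = 0.316). It had 1.99, 2.77 and 2.85 RPKM at 9.0 h and 3.51, 7.92 and 3.54 RPKM at 1.5 h. The times did not overlap, and 1.5 h replicate 2 stood far above the other libraries. Without that library its log2 fold change was -0.48. Ube2c shares 592 nt of exon with the muscle gene Tnnc2 on the opposite strand. Tnnc2 had 169.5, 199.6 and 208.6 RPKM at 9.0 h and 133.6, 235.8 and 189.9 RPKM at 1.5 h, so it too was highest in 1.5 h replicate 2, and its part in the Ube2c value was not tested. Cdc20, which activates the same complex, had 2.35 ± 0.56 RPKM at 9.0 h and 2.96 ± 0.97 RPKM at 1.5 h (SD, n = 3 each), with overlapping values. Its log2 fold change was -0.29, and -0.073 without 1.5 h replicate 2.

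**Figure D3:**
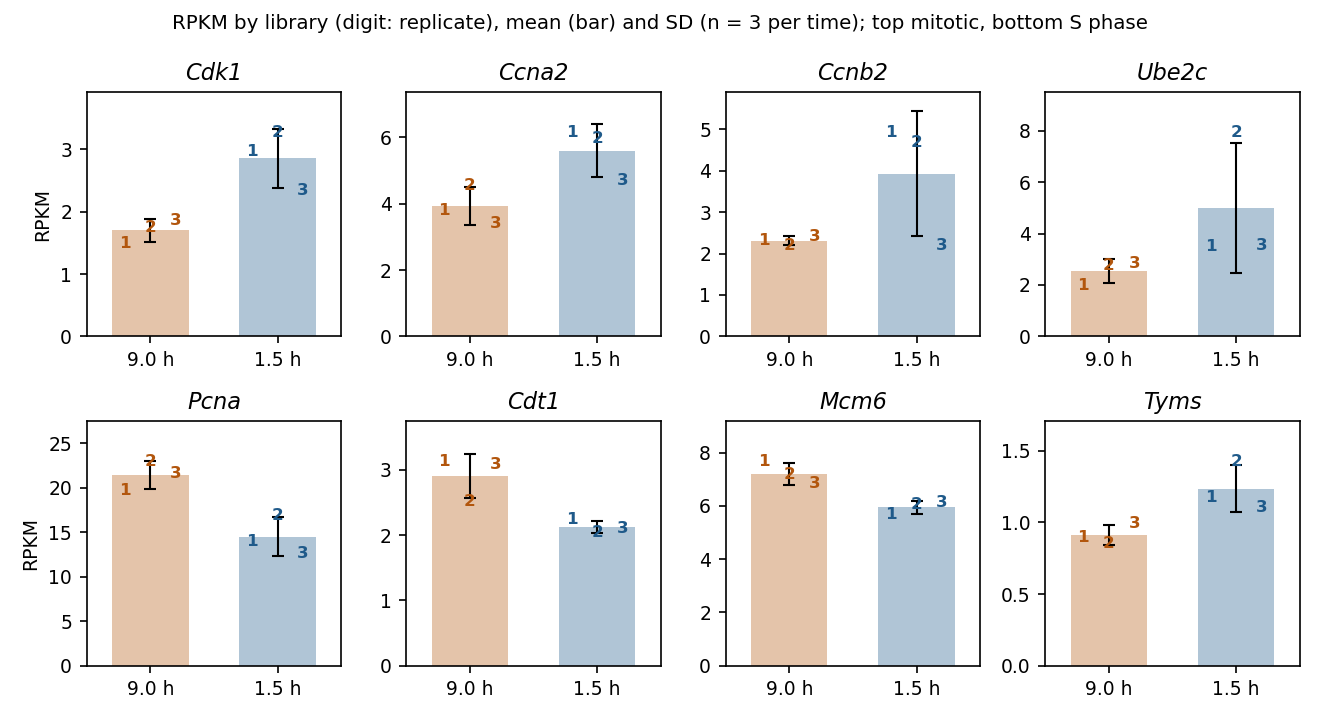
RPKM (y axis) at 9.0 h and 1.5 h (x axis) for 4 mitotic genes (top) and 4 S phase genes (bottom), with bars at the mean, error bars of 1 SD (n = 3 per time) and digits for the replicates. Cdk1 and Ccna2 lie lower and Pcna, Cdt1 and Mcm6 higher in all 9.0 h libraries, and Ccnb2 replicate 3 at 1.5 h has 2.19 RPKM, the level of the 9.0 h libraries.

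Of the mitotic kinases other than Cdk1, Aurkb, the kinase of the chromosomal passenger complex, had 1.31, 0.964 and 1.38 RPKM at 9.0 h and 1.88, 1.68 and 1.72 RPKM at 1.5 h. These values did not overlap and were close within the 1.5 h libraries (log2 fold change -0.51 ± 0.20 SE, limma adjusted p = 0.367). Birc5, the survivin subunit of that complex, had 0.804 ± 0.093 RPKM at 9.0 h and 1.05 ± 0.21 RPKM at 1.5 h (SD, n = 3 each). Aurka and Plk1, which act at centrosomes and spindle poles, had log2 fold changes of 0.091 and -0.20. Aurka had 1.29 RPKM in 1.5 h replicate 3, the lowest of all libraries, and its log2 fold change was -0.18 without that library. Tpx2, the activator of Aurora A at the spindle, had 0.977, 1.08 and 1.03 RPKM at 9.0 h and 1.48, 1.58 and 1.53 RPKM at 1.5 h. Both times were tight and apart, 1.5 h replicate 3 included (log2 fold change -0.53 ± 0.18 SE, limma adjusted p = 0.303). Aurkb and Tpx2 were singled out after their values were seen.

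Nusap1, a microtubule-binding protein of the spindle, had 0.604, 1.10 and 1.12 RPKM at 9.0 h and 1.16, 2.46 and 1.04 RPKM at 1.5 h. The times overlapped, and 1.5 h replicate 2 carried most of the difference: the log2 fold change was -0.61 ± 0.33 SE with it and -0.25 without it. The motor genes Kif11, Kif20a and Kif23 had log2 fold changes of -0.42, -0.35 and -0.34. All 3 were highest in 1.5 h replicate 2, at 1.14, 1.91 and 2.59 RPKM. Without that library their log2 fold changes were -0.21, -0.17 and -0.18. Kif20a shares 1271 nt of exon with Cdc23 on the opposite strand, whose RPKM was 9.07 to 10.1 at 9.0 h and 10.7 to 11.6 at 1.5 h.

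Among spindle checkpoint genes, Bub1b had 4.76, 3.95 and 4.68 RPKM at 9.0 h and 6.00, 5.37 and 4.57 RPKM at 1.5 h, with overlap through 1.5 h replicate 3. Its log2 fold change was -0.24 (95% interval -0.60 to 0.11). Bub1 had 0.289, 0.160 and 0.258 RPKM at 9.0 h and 0.333, 0.543 and 0.336 RPKM at 1.5 h. These did not overlap, but Bub1 did not pass the filter and rests on few reads, 14.9 to 33.0 per library. Mad2l1, which restrains Cdc20 until kinetochores are attached, had 3.82, 4.82 and 4.23 RPKM at 9.0 h and 4.21, 4.78 and 3.55 RPKM at 1.5 h, with a log2 fold change of 0.040 (95% interval -0.33 to 0.41).

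Spc25, a subunit of the NDC80 kinetochore complex, stood apart in level. It had 28.0, 41.0 and 30.4 RPKM at 9.0 h and 51.4 and 45.0 RPKM in 1.5 h replicates 2 and 3, with 30.6 RPKM in replicate 1. Its mean over the 6 libraries, 37.8 RPKM, was the highest of the 40 genes, and the next mitotic gene, Bub1b, had 4.89 RPKM. The other subunits of the complex were far lower: Spc24 averaged 1.39, Nuf2 0.947 and Ndc80 0.615 RPKM over the 6 libraries. No near-identical copy and no overlapping exon was found for Spc25. Its order of libraries also differed from that of its class, since 1.5 h replicate 3 was high and 1.5 h replicate 1 low for Spc25 (log2 fold change -0.34, 95% interval -0.81 to 0.13). Without 1.5 h replicate 1 it was -0.56, and without replicate 2 it was -0.18.

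The remaining mitotic genes are Mki67 (the proliferation marker Ki-67), Top2a (the topoisomerase that untangles sister chromatids), and the kinetochore genes Cenpe and Cenpf. Mki67 had 0.980, 0.970 and 0.996 RPKM at 9.0 h and 1.18, 1.30 and 0.829 RPKM at 1.5 h. The 9.0 h values were almost equal and lay inside the range of the 1.5 h libraries. Log2 fold changes were -0.13 for Mki67, -0.29 for Top2a, -0.11 for Cenpe and -0.30 for Cenpf. With GC and length trends removed they were 0.13 for Mki67, -0.17 for Top2a, 0.12 for Cenpe and 0.029 for Cenpf, and Cenpe was at 0.14 without 1.5 h replicate 2. In total, 17 of the 23 mitotic genes were highest in 1.5 h replicate 2, as were 33.7% of all tested genes. In 1.5 h replicate 1, 5 of them (21.7%) were highest, near the 22.5% of all tested genes.

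Pcna, the sliding clamp of the replicative polymerases, had the largest fold change of the S phase genes. It had 19.7, 22.9 and 21.6 RPKM at 9.0 h and 13.9, 16.9 and 12.6 RPKM at 1.5 h. The 9.0 h libraries were all higher, by a log2 fold change of 0.57 ± 0.15 SE (limma adjusted p = 0.189). Leaving out each library at 1.5 h in turn gave log2 fold changes of 0.55, 0.69 and 0.48. With GC and length trends removed it was 0.58 (limma adjusted p = 0.0568). Pcna has 1 near-identical processed pseudogene, so part of its reads could belong there.

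The licensing factor Cdt1, which loads the MCM helicase onto origins, had 3.12, 2.51 and 3.09 RPKM at 9.0 h and 2.23, 2.04 and 2.10 RPKM at 1.5 h. Its values did not overlap (log2 fold change 0.43 ± 0.17 SE, limma adjusted p = 0.378). Cdc6, its partner in helicase loading, was low, at 0.222 ± 0.023 RPKM at 9.0 h and 0.250 ± 0.088 RPKM at 1.5 h (SD, n = 3 each), and did not pass the filter. Its value rests on few reads, an estimated 10.2 to 35.6 per library. E2f1, an activator of S phase genes, had 2.49, 2.34 and 2.55 RPKM at 9.0 h and 2.21, 1.24 and 2.18 RPKM at 1.5 h. Its times did not overlap, but without 1.5 h replicate 2 its log2 fold change was 0.16, against 0.41 ± 0.22 SE with all libraries (limma adjusted p = 0.547). Ccne1, the cyclin that takes cells into S phase, had 3.85, 4.00 and 3.67 RPKM at 9.0 h and 3.49, 3.09 and 2.74 RPKM at 1.5 h, again without overlap (log2 fold change 0.30 ± 0.16 SE, limma adjusted p = 0.526). Its kinase Cdk2 had 7.40, 7.57 and 6.67 RPKM at 9.0 h and 6.36, 8.58 and 7.47 RPKM at 1.5 h, with a log2 fold change of -0.041 (95% interval -0.38 to 0.30). Ccne2 was low, at 0.401 ± 0.212 RPKM at 9.0 h and 0.435 ± 0.091 RPKM at 1.5 h (SD, n = 3 each).

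The 6 MCM genes encode the ring of the replicative helicase, and their levels were close to each other, with means over the 6 libraries from 3.39 RPKM for Mcm3 to 7.64 RPKM for Mcm7. All 6 had log2 fold changes above 0, from 0.018 for Mcm5 to 0.27 for Mcm6, and 0 passed. Mcm6 had 7.65, 7.17 and 6.83 RPKM at 9.0 h and 5.67, 6.06 and 6.13 RPKM at 1.5 h, without overlap (log2 fold change 0.27 ± 0.14 SE, limma adjusted p = 0.501). Mcm3 did not overlap either, at 3.64 ± 0.16 RPKM at 9.0 h and 3.15 ± 0.21 RPKM at 1.5 h (SD, n = 3 each). Mcm7, with 7.46, 7.95 and 8.53 RPKM at 9.0 h and 7.99, 7.73 and 6.17 RPKM at 1.5 h, and Mcm2, with 5.60, 5.36 and 5.56 RPKM at 9.0 h and 5.70, 5.17 and 4.48 RPKM at 1.5 h, overlapped between the times. Mcm6 and Mcm7 each have a near-identical processed pseudogene. Mcm7 also shares 64 nt of exon with Cops6 on the opposite strand, which had 79.3 to 83.3 RPKM at 9.0 h and 60.6 to 66.0 RPKM at 1.5 h, so both values are uncertain. Without 1.5 h replicate 3 the value of Mcm5 was -0.12. Gins2, a subunit of the GINS complex that joins the helicase, had a log2 fold change of 0.094 and a mean of 3.85 RPKM over the 6 libraries. It shares 2758 nt of exon with Gse1 on the opposite strand, and its longest transcript has 3900 nt. Gse1 had 9.02 to 12.6 RPKM at 9.0 h and 10.5 to 13.6 RPKM at 1.5 h. The value of Gins2 is therefore uncertain, and the part of Gse1 in it was not tested.

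The 95% intervals of the 3 nucleotide supply genes all included 0. Rrm1, the large subunit of ribonucleotide reductase, had 9.92, 10.5 and 9.06 RPKM at 9.0 h and 8.66, 11.4 and 9.16 RPKM at 1.5 h, with a log2 fold change of 0.018 (95% interval -0.32 to 0.35). Rrm2, its cell cycle regulated subunit, had a log2 fold change of -0.11. Tyms, which makes thymidylate, had 0.898, 0.852 and 0.991 RPKM at 9.0 h and 1.18, 1.42 and 1.11 RPKM at 1.5 h, lower in all 9.0 h libraries (log2 fold change -0.39 ± 0.20 SE, limma adjusted p = 0.5). Tyms passed the filter only through its 1.5 h libraries and has a near-identical processed pseudogene.

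**Figure D4:**
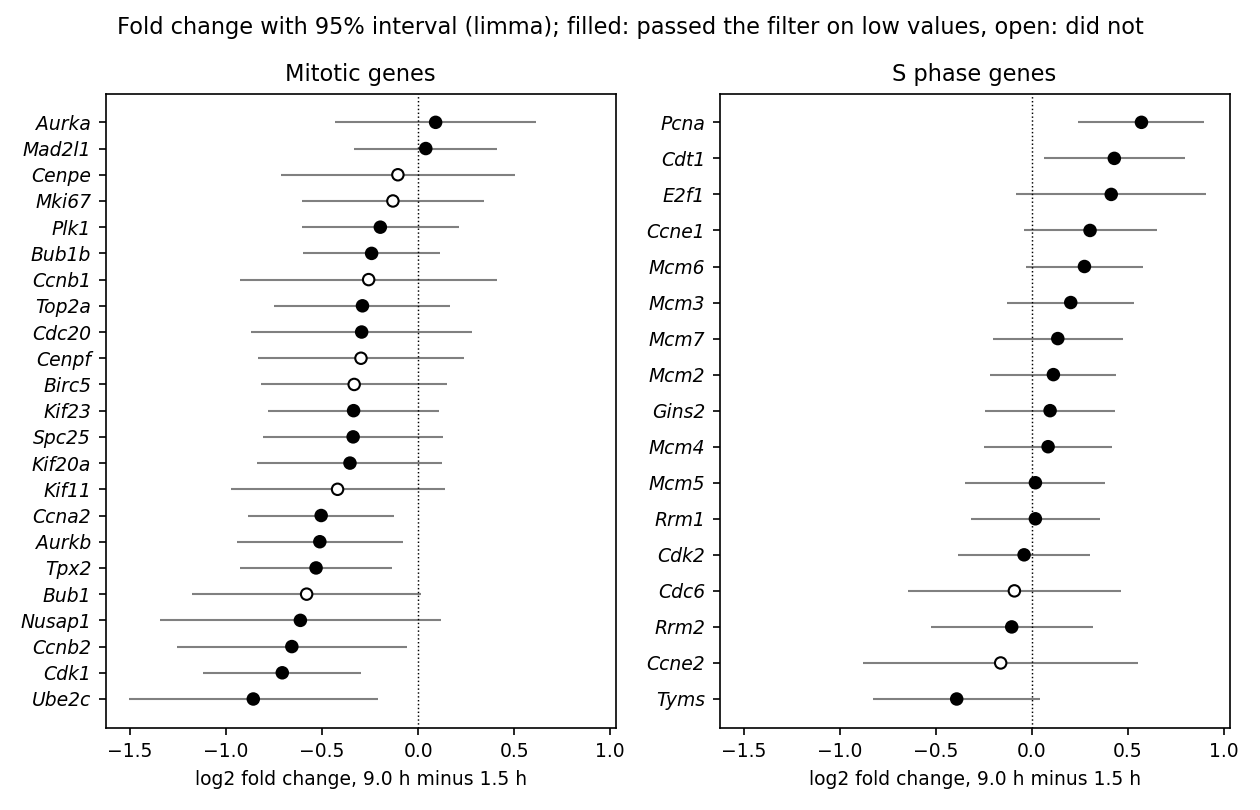
Log2 fold changes, 9.0 h minus 1.5 h (x axis), with 95% intervals from limma, for each gene (y axis) in the mitotic (left) and S phase (right) class. Filled points passed the filter on low values, open points did not and take their interval from a fit without the filter. Of the mitotic genes 21 of 23 lie left of 0, with Ube2c farthest at -0.86, and of the S phase genes 12 of 17 lie right of 0, with Pcna farthest at 0.57.

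**Figure D5:**
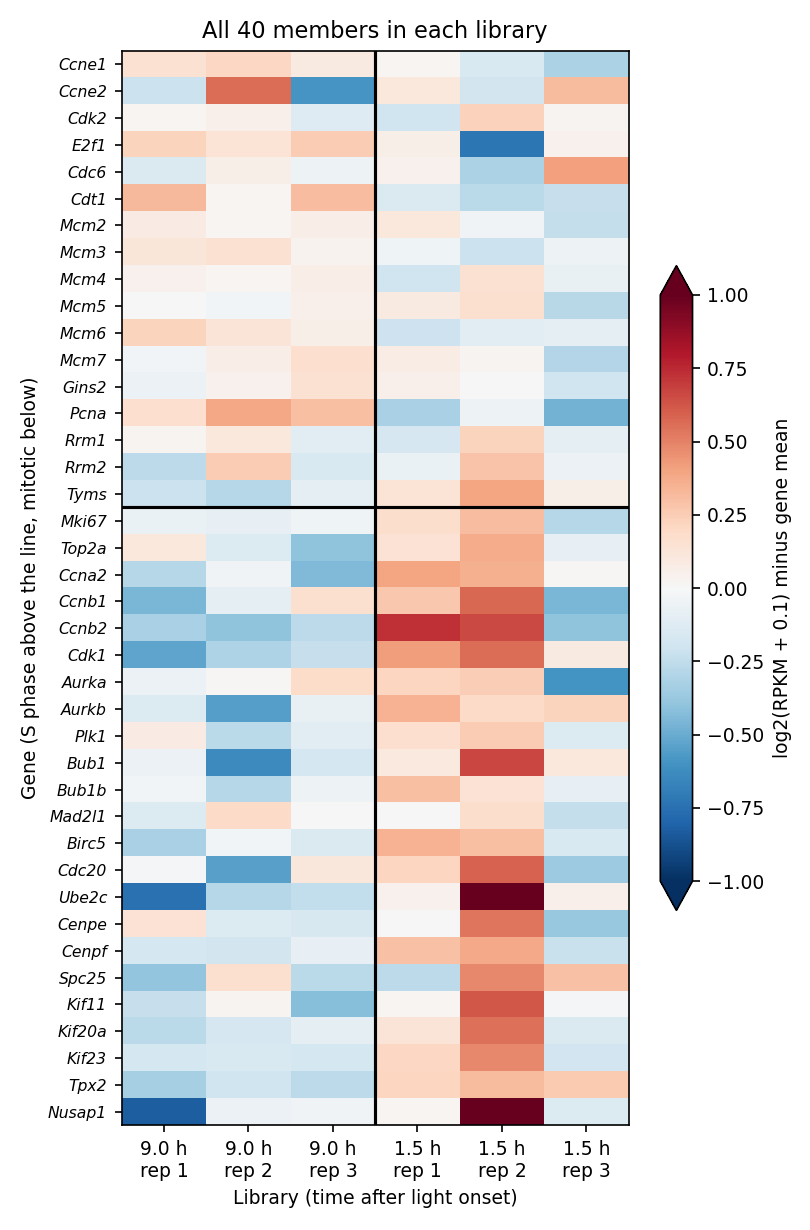
Each cell is 1 gene (y axis, S phase genes above the line and mitotic genes below) in 1 library (x axis), coloured by log2(RPKM + 0.1) minus the mean of the gene over the 6 libraries. The mitotic rows are red mainly in 1.5 h replicates 1 and 2, where 19 and 22 of 23 genes exceed every 9.0 h library, and 1.5 h replicate 3 resembles the 9.0 h columns. The share of all genes that exceed every 9.0 h library was not counted.

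Other genes of the same pathways were read from the same fit. Of 46 further mitosis genes, 37 had a fold change below 0 and the median was -0.20, with 41 below 0 and -0.37 without 1.5 h replicate 3. Of 23 that passed the filter, 15 had a fold change below 0, with a smaller median of -0.11, and 0 were called. With GC and length trends removed, 32 of the 46 were below 0, with a median of -0.20. Anln, which builds the cleavage furrow, averaged 1.32 ± 0.16 RPKM at 9.0 h and 2.05 ± 0.28 RPKM at 1.5 h (SD, n = 3 each; limma adjusted p = 0.282), and Prc1, which bundles the central spindle, 2.22 ± 0.33 RPKM at 9.0 h and 3.35 ± 0.80 RPKM at 1.5 h (SD, n = 3 each; limma adjusted p = 0.357). Their values did not overlap between the times. The most abundant, Bub3 and Pttg1, had log2 fold changes of 0.0027 and -0.14.

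Of 42 further replication genes, 28 had a fold change below 0, with a median of -0.096, the opposite direction to most S phase members. Without 1.5 h replicate 3, 31 were below 0 and the median was -0.072. Of the 37 tested, 0 were called. The single-stranded DNA binding protein gene Rpa1 and the clamp loader gene Rfc2, the most abundant, had log2 fold changes of 0.11 and 0.029. Tk1, thymidine kinase, averaged 2.74 ± 0.18 RPKM at 9.0 h and 3.81 ± 0.87 RPKM at 1.5 h (SD, n = 3 each; limma adjusted p = 0.411), without overlap. Dbf4, the activator of the origin-firing kinase Cdc7, had a log2 fold change of 0.30.

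Of 13 G1 cyclins, kinases and transcription factors, 12 were tested and 0 called, with a median of -0.028. Ccnd3, cyclin D3, averaged 31.8 ± 0.7 RPKM at 9.0 h and 21.8 ± 3.3 RPKM at 1.5 h (SD, n = 3 each), with a log2 fold change of 0.55 ± 0.15 SE and no overlap (limma adjusted p = 0.19). Ccnd1 and Cdk4 had log2 fold changes of 0.22 and 0.072. Of 21 genes that restrain the cell cycle, 18 were tested and 0 called, with a median of -0.067. Btg1, an antiproliferative gene, averaged 12.5 ± 1.3 RPKM at 9.0 h and 8.09 ± 1.16 RPKM at 1.5 h (SD, n = 3 each; limma adjusted p = 0.179), again without overlap. Cdkn2b, Ccng1 and Cdkn1c had log2 fold changes of -0.43, 0.14 and 0.16. Wee1, which inhibits Cdk1 and is known as a clock-controlled gene in mouse liver, had 3.64, 4.29 and 3.18 RPKM at 9.0 h and 2.28, 3.07 and 2.89 RPKM at 1.5 h. It was higher in all 9.0 h libraries, though narrowly, and is named after its values were seen (log2 fold change 0.42 ± 0.18 SE, limma adjusted p = 0.43).

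Markers of tissues that can hold dividing cells also varied between libraries. Summed over 15 markers of corneal and conjunctival epithelium, RPKM ranged from 5055 to 6547 at 9.0 h and from 3950 to 5834 at 1.5 h, with the lowest sum in 1.5 h replicate 3. Krt12, Aldh3a1 and Krt5, at means of 1630, 1254 and 1023 RPKM over the 6 libraries, weigh most in these sums. Relative to each gene's mean, the 15 markers averaged 0.092, -0.0064 and 0.33 on the log2 scale in 9.0 h replicates 1 to 3. In 1.5 h replicates 1 to 3 they averaged 0.13, -0.10 and -0.44. Of the 15, 12 had a fold change above 0 and 3 below, with a median of 0.23. Over 9 lens epithelium markers the sum ranged from 196.3 to 222.2 at 9.0 h and from 205.5 to 253.5 at 1.5 h. Over 15 leukocyte markers the sums were 146.1 to 166.2 at 9.0 h and 145.4 to 204.5 at 1.5 h, highest in 1.5 h replicate 2, with the neutrophil precursor gene Mpo at 0 throughout and Elane and Ngp at or near 0. Endothelial markers (9 genes) summed to 89.7 to 102.7 at 9.0 h and 90.4 to 107.5 at 1.5 h. Of 11 erythroid markers, 4 globin entries were at 0 in every library, and the sum was 99.7 to 137.0 at 9.0 h and 58.7 to 398.9 at 1.5 h. Of the markers in these 5 lists 0 were called. Markers of connective tissue (9 genes) summed to 1532 to 1986 RPKM at 9.0 h and 842.8 to 1680 RPKM at 1.5 h, and those of skeletal muscle (8 genes) to 1291 to 1496 RPKM at 9.0 h and 684.8 to 1251 RPKM at 1.5 h. Those of lens fibres (10 genes) summed to 118805 to 136720 RPKM at 9.0 h and 79593 to 120654 RPKM at 1.5 h. All 3 lists were lowest in 1.5 h replicate 1, and the muscle gene Tcap was the 1 marker called, at 163.8 ± 38.1 RPKM at 9.0 h and 65.3 ± 8.9 RPKM at 1.5 h (SD, n = 3 each; limma adjusted p = 0.0224). No marker was called when any 1 of the 9.0 h libraries or 1.5 h replicate 3 was left out. Pigment epithelium markers (7 genes) summed to 998.5 to 1175 RPKM at 9.0 h and 998.1 to 1522 RPKM at 1.5 h, highest in 1.5 h replicate 2. The part of these tissues in the values of the mitotic and S phase genes was not tested.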

How the data were processed

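RNA-seq of poly(A) RNA from whole mouse eyes was used, grouped by the labelled time (3 libraries each). The authors deposited 1 table per library with RPKM values for 22692 gene symbols. GSNAP, HTSeq and the mouse build mm9 are named, per the submitters' processing notes. Not given in the sources used here: versions, annotation, strand setting and treatment of multiply matching reads. The unit was taken from the values: in single-transcript genes between 67.1% and 70.2% of low values lay within 0.1 read of a whole number at the library's step, which gave the read totals (12730000 to 31770000). A 2 kb transcript at 1 RPKM then had 25.5 to 63.5 reads, and 3 reads correspond to 0.0472 to 0.118 RPKM, counting error only. Pairs of libraries had correlations of log2 values across genes between 0.948 and 0.989, and none held identical values.

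From the deposited RPKM, log2(RPKM + 0.1) was tested with limma 3.58.1 in R 4.3.3 (eBayes with trend and robust), 9.0 h minus 1.5 h, over genes that reached 1 RPKM in at least 3 libraries, with Benjamini-Hochberg adjustment over all 13490; fold changes on this scale understate those of low genes. The fit was tested on simulated data with independent noise of equal spread at both times. The libraries differ from that setting: the median SD of log2 values over tested genes was 0.144 at 9.0 h and 0.230 at 1.5 h. The simulation therefore does not cover unequal spread or shifts shared by the genes of a library. An exact permutation test of 3 against 3 cannot go below p = 0.1. Members, lists and tests were chosen with earlier results of these data known. Genes shown by library were the 6 with the highest mean and the 4 tested with the largest fold change in each class, and in each other cell cycle list the 2 most abundant and the 2 tested with the largest fold change. Other members named with values by library, Spc24, Nuf2, Ndc80 and Wee1 were chosen after their values were seen. Tissue marker lists are given as sums, and that of corneal and conjunctival epithelium also as deviations and fold changes. Same-numbered libraries of the 2 times had correlations of their deviations of 0.347, 0.484 and -0.215, and differently numbered ones of -0.539 to 0.225. These values do not settle whether the numbers are pairs. The main fit used time only, and the replicate number entered as a block in an alternative. GC, length, copies (minimap2 2.31, at least 95% identity over 200 nt) and exon overlaps came from GENCODE M21 transcripts of GRCm38, not the build of the files; 9 members had a copy and 11 an exon overlap. Motifs were searched in RefSeq promoters of GRCm38.p6. Alternatives covered the pseudocount, the filter, the scaling, the replicate number as a block, the limma settings and leaving out each library. Further ones, chosen after seeing the data, removed GC and length trends.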

Additional observations from a re-analysis of the deposited data

How the results depend on the processing

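No S phase or mitotic member was called in limma under any alternative except leaving out 1.5 h replicate 1, where 1 S phase gene (Pcna, adjusted p = 0.0115) and 4 mitotic genes (Ube2c, Spc25, Cdk1 and Nusap1, adjusted p 3.77e-06 to 0.0202) passed. In that fit 9.11% of all tested genes passed, and limma moderated the variance of each gene with that of the other genes. Ube2c then had 7.92 and 3.54 RPKM in 1.5 h replicates 2 and 3, so its small adjusted p does not reflect a narrow spread. Its limma adjusted p was 0.369 when replicate 2 and 0.359 when replicate 3 was left out instead. Leaving out 1 library gave 0 to 1 S phase and 0 to 4 mitotic calls, 2 to 1219 calls over all genes, 0 to 20 in the other lists, and class medians of 0.021 to 0.14 (S phase) and -0.52 to -0.18 (mitotic).

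Over all genes, 30 calls became 15 after quantile normalization, 141 with the replicate block (which changed no call of a member; 9.0 h replicate 3 did not correlate best with its own number), 81 with GC and length trends removed and 5 with that and without 1.5 h replicate 3. The last 2 gave 3 and 0 calls in the other cell cycle and tissue lists, against 1. The S phase median of 0.094 was 0.14 after quantile normalization and 0.014 after rescaling without crystallins, where the median of all genes was -0.080. The mitotic median stayed below 0 under every alternative run.

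Some fold changes took the other sign, none of them called. Leaving out 1 library gave -0.15 to 0.063 for Cdk2, -0.12 to 0.10 for Mcm5, -0.061 to 0.14 for Rrm1, -0.26 to 0.012 for Rrm2, -0.18 to 0.24 for Aurka and -0.069 to 0.14 for Mad2l1. Rescaling without crystallins gave -0.062 for Mcm5, -0.064 for Rrm1 and -0.040 for Mad2l1. Removing GC and length trends gave -0.029 for Mcm5 and, among members under the filter, 0.13 for Mki67, 0.12 for Cenpe and 0.029 for Cenpf. Also under the filter, Cenpe had 0.14 without 1.5 h replicate 2 and Cdc6 0.092 without 1.5 h replicate 3. With 1.5 h replicate 3 left out as well, values were -0.14 for Mcm5, -0.0020 for Mcm2, -0.041 for Mcm7, -0.022 for Gins2 and -0.23 for Aurka. The cause was not tested. Both GC alternatives were chosen after seeing the data. Estimated reads per library were lowest for Cdc6 (10.2), Ccne2 (13.1), Bub1 (14.9) and Ccnb1 (19.3), which limits their precision.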
